A study of Homo sapiens with 6 samples.

Results

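The genes described here are 10 members of the feedback and output arm of the ERK pathway, chosen by name: the Sprouty genes SPRY1, SPRY2 and SPRY4, the SPRED genes SPRED1 and SPRED2, the phosphatase genes DUSP4, DUSP5 and DUSP6, and the ETS factor genes ETV4 and ETV5. The members, and the gene lists set beside them, were chosen with earlier results of these data known. All 10 members were found among the 54628 gene symbols of the count files. They were measured by mRNA sequencing in U87, an established human glioblastoma cell line, which had been grown in co-culture and then separated with a flow cytometer. Astrocytes are the source of the mitochondria in the series title. By their labels, 3 libraries are of cycling U87 cells with received mitochondria (received) and 3 of cycling U87 cells without (not received). Both groups are of the same line and were sorted from co-culture, and the labels give no separate drug, allele or time point for either. The comparison asks whether transcripts that read out ERK activity differed between received and not-received cells.

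ERK, the last kinase of the RAS-RAF-MEK-ERK cascade, carries growth factor signals to the nucleus, and glioblastomas commonly drive it through receptor tyrosine kinases or loss of NF1. Among the genes ERK switches on are its own inhibitors. Sprouty proteins act between the receptor and RAF, SPRED proteins bring the RAS-inactivating protein neurofibromin to the membrane, and dual-specificity phosphatases (DUSPs) remove the activating phosphates from ERK itself. ETV4 and ETV5 belong to the PEA3 group of ETS transcription factors and carry the signal into gene expression. The transcriptional repressor CIC holds ETV and DUSP genes down until ERK signalling relieves it. These transcripts are therefore widely used as a readout of ERK output.

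The 10 genes did not move as a block. In received cells DUSP6 was 1.41-fold higher (95% confidence interval 1.25 to 1.59) and ETV4 was 1.24-fold higher (1.09 to 1.41), while SPRY4 was lower, at 0.636 of the not-received level (0.543 to 0.745). The other 7 genes did not pass the test. With edgeR's quasi-likelihood test and an adjusted p under 0.05 over all 14100 genes tested, 2 of the 10 were called higher and 1 lower, where 9.21% of all genes tested were called higher and 9.67% lower, 18.9% in all. In 4 of the 10 the received libraries did not overlap the not-received libraries, 3 above and 1 below, against 39.0% of all genes tested (19.5% above and 19.5% below). Neither count is read as a result about the list as a whole. The median log2 fold change was 0.08 over the 10 members and -0.0012 over all genes tested, and the median absolute log2 fold change was 0.15 and 0.17.

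The genes with the clearest opposite changes, DUSP6 and SPRY4, each had 1 transcription start in the set of RefSeq starts searched. That set lacks some genes and may lack other starts of this pair. The 250 bases before that start are shown because the results turn on this pair, and each reads 5′ to 3′ on the strand of its gene (build GRCh38.p14, minus strand). Capitals mark matches to the motifs searched.
DUSP6 (chr12:89352502-89352751): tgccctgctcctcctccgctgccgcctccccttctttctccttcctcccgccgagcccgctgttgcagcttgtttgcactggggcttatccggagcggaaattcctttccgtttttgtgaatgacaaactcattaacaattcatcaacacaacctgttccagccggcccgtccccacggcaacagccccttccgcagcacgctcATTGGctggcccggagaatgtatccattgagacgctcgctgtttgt
SPRY4 (chr5:142324248-142324497): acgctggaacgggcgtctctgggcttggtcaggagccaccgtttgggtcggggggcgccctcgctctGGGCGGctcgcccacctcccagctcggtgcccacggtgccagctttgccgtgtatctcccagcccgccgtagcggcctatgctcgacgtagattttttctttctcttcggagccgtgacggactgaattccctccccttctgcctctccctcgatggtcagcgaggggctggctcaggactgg
The capitals in DUSP6 are a CCAAT box (CCAAT, here on the other strand), bases 46 to 42 before the start, and those in SPRY4 are a GC box (GGGCGG), bases 183 to 178 before it. Neither stretch held the other motifs as spelled in the search, which covered both strands. These were the ETS site CCGGAA, the AP-1 site TGANTCA, the cyclic AMP response element TGACGTCA and the CIC octamer forms TGAATGAA and TGAATGGA. Shorter ETS sites and other forms of the CIC octamer were not searched for, and nothing is said of their absence. Of 35116 stretches of this length before RefSeq starts, 32.01% held a CCAAT box, 42.6% a GC box and 14.5% the ETS site CCGGAA. The AP-1 site stood in 6.57%, the cyclic AMP element in 1.65% and either listed form of the CIC octamer in 2.19%. A match is a description of letters, and a motif outside this window would not be seen. Entries were found for 6 of the 10 genes, with 10 starts in all. The ETS site CCGGAA stood before 1 start of SPRY1 and 1 of SPRY2, and that SPRY2 start was not matched to a GENCODE transcript.

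The libraries held 17879552 to 46392491 counts, the deepest being not-received replicate 2, which also lay farthest out on the first principal component (-44.43, against -13.83 and -14.76 for the rest of its group). Levels below are counts per 1000000 counts (CPM), scaled with TMM factors. A ± after a CPM is the SD over the 3 libraries of a group, and after a log2 fold change (received over not received) it is the SE. The labels do not state that replicates came from separate cultures, and p-values therefore reflect only sample-to-sample spread, which may be technical. In bulk RNA, fewer cells of a kind and less RNA per cell cannot be told apart. The labels were checked against markers. CDKN2A, which U87 cells are known to lack, had 0 counts in every library. Zeros of CDKN2A and of the markers below do not settle a label. The pathway genes HRAS and RPS6KA1 also had 0 counts throughout, and how reads were assigned to genes is not given. The 5 proliferation markers summed to 2163 to 2271 CPM in received and 2075 to 2363 CPM in not-received libraries. Within that sum the markers went both ways: CCNB1 was called higher (edgeR adjusted p = 0.02742), and without a call CDK1 lay above and MKI67 and PCNA below in every received library. The 6 genes of mesenchymal glioma cells summed to 9285 to 9772 CPM in received and 10173 to 10353 CPM in not-received libraries. Of these CHI3L1, TGFBI and CD44 were called lower (log2 fold change -0.90, -0.41 and -0.23), VIM and NES higher (0.26 and 0.46), and FN1 was not called. Of 8 astrocyte markers AQP4 and ALDH1L1 had 0 counts and GFAP averaged 0.328 CPM in received and 0.390 CPM in not-received cells, and the list summed to 71.2 to 82.4 CPM in received and 84.4 to 93.9 CPM in not-received libraries, almost all of it ALDOC and SLC1A3. Of 8 myeloid markers AIF1, CX3CR1, P2RY12 and TYROBP had 0 counts. That list summed to 493 to 508 CPM in received and 370 to 410 CPM in not-received libraries through CD68, a lysosomal protein gene (481 ± 8.48 against 374 ± 21.9 CPM). The part of these lists in the results was not tested.

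**Figure D1:**
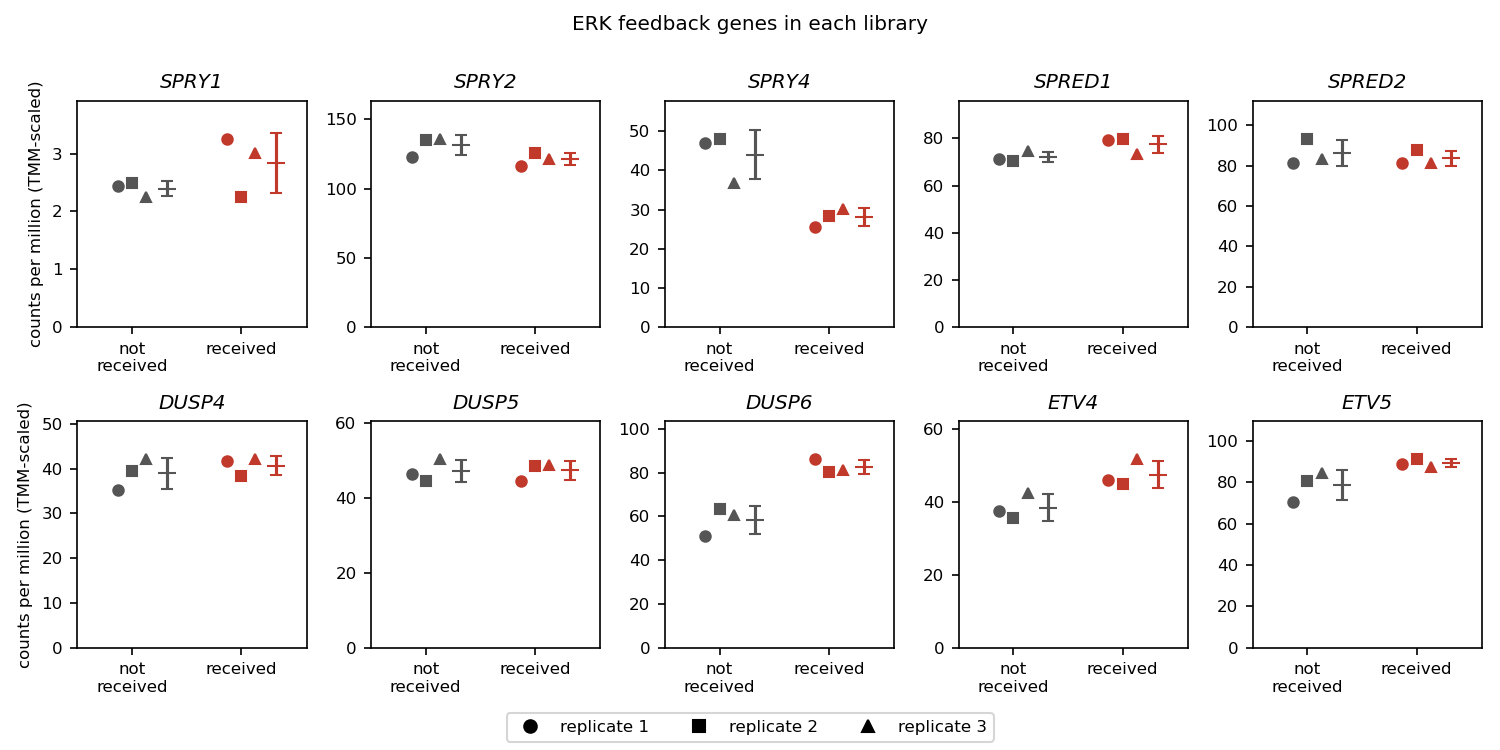
Level of each of the 10 genes in CPM (TMM-scaled, linear axis from 0) in the 3 not-received (grey) and 3 received (red) libraries, with the marker shape giving the replicate number and the bar the mean and SD of a group. The received libraries lie above all not-received libraries for DUSP6, ETV4 and ETV5 and below them for SPRY4, and the groups overlap for the other 6 genes.

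Among the Sprouty genes, SPRY4 fell. SPRY4, an inhibitor of receptor signalling to RAS and RAF, stood at 25.6, 28.5 and 30.1 CPM in received replicates 1, 2 and 3 and at 47.0, 48.1 and 36.8 CPM in not-received replicates 1, 2 and 3. All received libraries lay under all not-received ones, and not-received replicate 3 was the nearest to the received group. The log2 fold change was -0.65 ± 0.10 (SE; edgeR adjusted p = 0.001201). The antisense gene SPRY4-AS1 had 28 to 66 counts per library and shares no exon bases with SPRY4 in the GENCODE gene models.

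SPRY2 had the highest level of the 3 Sprouty genes, also per length. It stood at 117, 126 and 122 CPM in received and 123, 135 and 136 CPM in not-received libraries, groups that overlapped. Its log2 fold change was -0.12 (95% confidence interval -0.25 to 0.02; edgeR adjusted p = 0.2009), so the interval leaves out a change of the size of that of SPRY4. SPRY4 counts per SPRY2 count in the same library, were 0.219, 0.227 and 0.248 in received and 0.382, 0.357 and 0.271 in not-received libraries. SPRY1 was scarce, with 42 to 113 counts per library, and stood at 3.26, 2.25 and 3.00 CPM in received and 2.44, 2.49 and 2.25 CPM in not-received cells. Its interval of -0.23 to 0.72 on the log2 scale is wide (edgeR adjusted p = 0.4751), and a difference was not detectable at this depth.

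Neither SPRED gene was called. SPRED1, whose loss causes Legius syndrome, stood at 79.4, 79.9 and 73.3 CPM in received and 71.4, 70.5 and 74.7 CPM in not-received libraries. The groups overlapped through received replicate 3 and not-received replicate 3, and the log2 fold change was 0.10 (95% confidence interval -0.03 to 0.24; edgeR adjusted p = 0.2716). SPRED2 stood at 81.6, 87.9 and 81.5 CPM in received and 81.4, 93.4 and 83.5 CPM in not-received libraries, and its interval ran from -0.19 to 0.10 (edgeR adjusted p = 0.6882). Both intervals leave out a change of the size of that of DUSP6.

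Of the phosphatase genes, DUSP6 rose and the nuclear phosphatase genes DUSP4 and DUSP5 did not pass the test. DUSP6, also called MKP3, encodes the phosphatase that removes the phosphates of ERK in the cytoplasm. It stood at 86.2, 80.1 and 81.3 CPM in received and at 51.1, 63.2 and 60.8 CPM in not-received libraries. The gap between the groups, from 63.2 to 80.1 CPM, was wider than the range within either group, and the log2 fold change was 0.50 ± 0.08 (SE; edgeR adjusted p = 9.134e-04). GENCODE places an antisense gene on the other strand over 1789 of the 4546 exon bases of DUSP6, and without a stated strand setting its reads cannot be told apart from those of DUSP6.

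DUSP4, an inducible phosphatase of the nucleus, stood at 41.7, 38.3 and 42.1 CPM in received and 35.2, 39.5 and 42.2 CPM in not-received libraries. Its groups overlapped, and the log2 fold change was 0.06 (95% confidence interval -0.12 to 0.24; edgeR adjusted p = 0.6392). DUSP5, which acts on ERK alone and holds it in the nucleus, stood at 44.5, 48.7 and 49.0 CPM in received and 46.6, 44.6 and 50.5 CPM in not-received libraries. Its log2 fold change was 0.0073 (95% confidence interval -0.15 to 0.17; edgeR adjusted p = 0.9574).

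Ratios of counts within a library, which no scaling moves, restate these levels. DUSP6 counts per DUSP4 count averaged 2.03 ± 0.0864 (SD, n = 3) over received libraries and 1.498 ± 0.0887 over not-received ones, and per DUSP5 count 1.75 ± 0.164 and 1.24 ± 0.162. DUSP6 counts per SPRY4 count were 3.37, 2.81 and 2.70 in received and 1.09, 1.31 and 1.65 in not-received replicates 1, 2 and 3. ETV5 counts per SPRY4 count were 3.19 ± 0.289 in received libraries, against 1.82 ± 0.417. The 5 ratios computed were built from genes picked after their levels were seen, so they are a description and no further support for the differences.

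**Figure D2:**
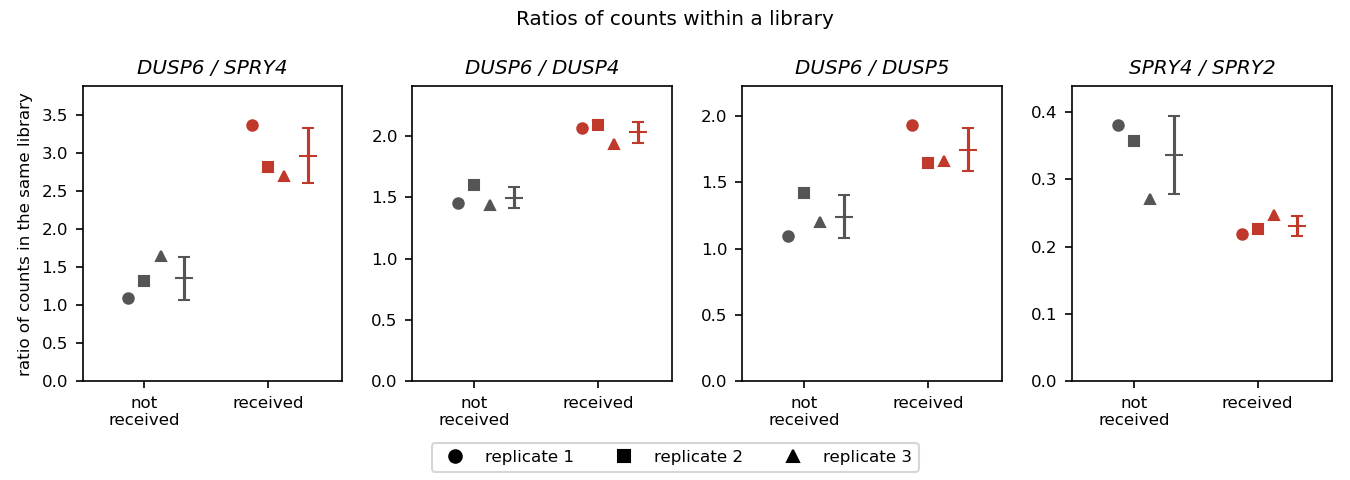
Ratio of the counts of 2 genes within the same library (linear axis from 0) in the 3 not-received (grey) and 3 received (red) libraries, with the mean and SD of each group as a bar. DUSP6 per SPRY4 count runs from 1.09 to 1.65 in not-received and from 2.70 to 3.37 in received libraries, and no panel shows an overlap between the groups.

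Both ETS factor genes lay higher in every received library, and ETV4 passed the test. ETV4 stood at 46.01, 44.8 and 51.8 CPM in received and 37.4, 35.5 and 42.5 CPM in not-received libraries. The gap between the groups, 42.5 to 44.8 CPM, was narrower than the range within either group. The log2 fold change was 0.31 ± 0.09 (SE; edgeR adjusted p = 0.02376), and the call ended without not-received replicate 1, received replicate 1 or received replicate 3 (edgeR adjusted p = 0.05863, 0.06491 and 0.1273).

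ETV5 stood at 89.0, 91.2 and 87.4 CPM in received and 70.6, 80.6 and 84.5 CPM in not-received libraries. The received libraries were tightly grouped above the more widely spread not-received ones. Its log2 fold change of 0.18 ± 0.07 was not called (edgeR adjusted p = 0.09072). It was called without not-received replicate 2 or 3 (edgeR adjusted p = 0.0483 and 0.04684) and with scaling by library size alone (edgeR adjusted p = 0.04267), and stood at 0.11 without not-received replicate 1. That scaling moved the share of higher genes among all calls from 48.8% to 60.3%.

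**Figure D3:**
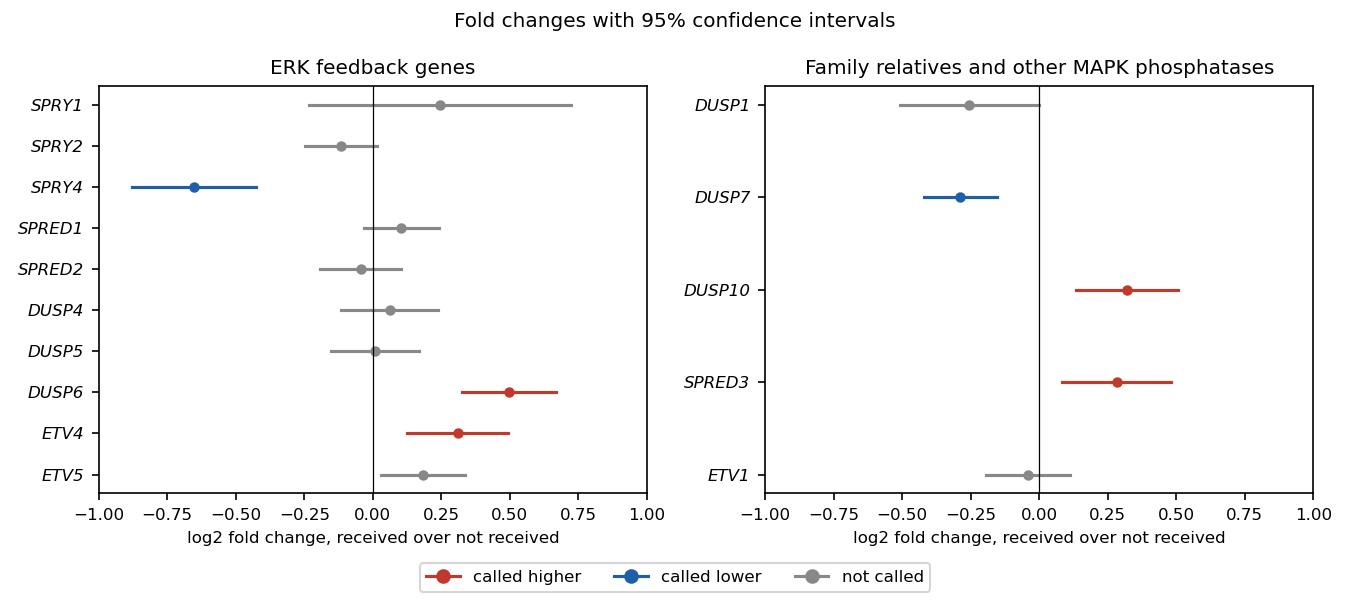
Log2 fold change, received over not received (x axis), with its 95% confidence interval for the 10 genes (left) and for the relatives that passed the low-count filter (right), coloured by whether edgeR called them higher, lower or neither. Among the 10 genes SPRY4 lies at -0.65 and DUSP6 at 0.50, and the intervals of 6 of the 7 uncalled genes span 0, that of ETV5 being the exception.

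Levels of the 10 genes were compared per length, as CPM per kilobase of the coding transcripts' exons in GENCODE models, which may not be the models the authors counted on. In not-received cells SPRY2 led at 43.2 ± 2.35 and SPRED2 followed at 20.7 ± 1.54. DUSP5 (18.5 ± 1.17) and ETV5 (18.1 ± 1.66) came next, within their spread of each other. ETV4 (13.7 ± 1.28) and DUSP6 (12.8 ± 1.41), and SPRED1 (9.28 ± 0.282) and SPRY4 (8.83 ± 1.25), likewise lay within their spread, with DUSP4 at 5.37 ± 0.485 and SPRY1 at 0.793 ± 0.0415 below them (CPM per kilobase, SD, n = 3). In received cells DUSP6 stood at 18.2 ± 0.710 CPM per kilobase, within its spread of DUSP5 (18.5 ± 0.976), and SPRY4 at 5.64 ± 0.462, within its spread of DUSP4 (5.61 ± 0.288).

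Across the 6 libraries the log2 CPM of DUSP6 followed that of ETV5 (Pearson r = 0.90) and ran against that of SPRY4 (r = -0.90), which describes the group difference and the shared libraries together. By the rule set for likeness, the genes closest to DUSP6 were ASS1, argininosuccinate synthase of the urea cycle (r = 0.997), FAM86EP, TMTC4, the lysophospholipid transporter gene MFSD2A and EVA1A-AS (r = 0.994). Over 6 libraries such values are common, since 704 of the 11737 genes ranked had an r above 0.9. ASS1 stood at 147 ± 2.51 CPM in received and 126 ± 6.16 CPM in not-received cells.

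The relatives outside the 10 genes went both ways as well. The 10 MAPK phosphatase genes include the members DUSP4, DUSP5 and DUSP6, and 6 of the 10 passed the low-count filter. Of these 6, DUSP6 and DUSP10 were called higher and DUSP7 lower, where 9.21% of all genes tested were called higher and 9.67% lower. The count was not tested against these shares. DUSP7, a cytoplasmic ERK phosphatase close to DUSP6, stood at 58.9, 58.0 and 59.7 CPM in received and 73.4, 71.8 and 70.4 CPM in not-received libraries, without overlap (log2 fold change -0.29 ± 0.06; edgeR adjusted p = 0.005947). DUSP10, which acts on JNK and p38, rose from 18.2 ± 0.592 to 22.8 ± 1.65 CPM (log2 fold change 0.32 ± 0.09; edgeR adjusted p = 0.0199), a call that ended without received replicate 1 or 3 (edgeR adjusted p = 0.09976 and 0.07744). DUSP1, an immediate-early gene, stood at 61.0, 46.8 and 43.6 CPM in received and 64.3, 58.0 and 58.9 CPM in not-received libraries and was not called (edgeR adjusted p = 0.1487), though it was called lower without received replicate 1 (log2 fold change -0.41; edgeR adjusted p = 0.01496) and without a low-count filter (edgeR adjusted p = 0.01112). DUSP2 and DUSP9 had 0 counts in every library, which allows up to 0.0647 to 0.168 CPM by library for counting error only, and DUSP8 and DUSP16 stayed under 1 CPM.

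SPRED3, the third SPRED gene, rose from 18.2 ± 1.83 to 22.2 ± 0.982 CPM (log2 fold change 0.28 ± 0.09; edgeR adjusted p = 0.04772). That call was lost in 7 of the 13 alternatives, with adjusted p up to 0.1497: with DESeq2, with limma-voom and without any 1 library other than not-received replicate 3. ETV1, the third gene of the PEA3 group, stood at 87.4 ± 2.52 CPM in received and 89.7 ± 8.32 CPM in not-received cells (edgeR adjusted p = 0.7329). SPRY3 had 0 to 6 counts per library and was not tested.

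Of 22 other target genes of ERK listed, 20 passed the low-count filter, and 5 were called higher and 3 lower, where 9.21% of all genes tested were called higher and 9.67% lower. The difference from that background was not tested, and the list was chosen with earlier results of these data known. The 20 targets tested had a median log2 fold change of 0.08. LIF, an interleukin-6 family cytokine, stood at 60.4, 59.5 and 66.7 CPM in received and 24.8, 24.5 and 23.3 CPM in not-received libraries (log2 fold change 1.36 ± 0.08; edgeR adjusted p = 1.42e-07). HBEGF, a ligand of the EGF receptor, rose from 33.7 ± 0.767 to 47.7 ± 3.22 CPM, TRIB1, a pseudokinase, from 9.57 ± 0.948 to 14.1 ± 1.17 CPM, and JUNB, an AP-1 subunit, from 67.4 ± 4.01 to 86.3 ± 6.20 CPM. PHLDA1 rose from 314 ± 18.6 to 369 ± 10.4 CPM, a call that ended without received replicate 1 or 2 (edgeR adjusted p = 0.0817 and 0.05616). LIF, HBEGF and JUNB are known to respond to other pathways as well as to ERK. Whether ERK moved any of the targets, higher or lower, was not tested.

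The 3 targets that fell were EPHA2, CCND1 and EMP1. EPHA2, an ephrin receptor, stood at 56.7, 56.1 and 67.4 CPM in received and 108, 98.1 and 83.8 CPM in not-received libraries, with no overlap (log2 fold change -0.69 ± 0.10; edgeR adjusted p = 0.001053). CCND1, the cyclin that opens the cell cycle, fell from 657 ± 25.6 to 539 ± 37.6 CPM, a call that ended without received replicate 2 (edgeR adjusted p = 0.05985). EMP1, a membrane protein gene named after its values were seen, fell from 444 ± 41.3 to 382 ± 12.7 CPM and lost its call in 6 of 13 alternatives, among them leaving out not-received replicate 3 or any 1 received library (highest edgeR adjusted p = 0.1649). FOSL1, an AP-1 subunit held up by sustained ERK signalling, averaged 906 ± 29.8 CPM in received cells against 1019 ± 79.6 CPM and did not pass (edgeR adjusted p = 0.07888). EGR1, an immediate-early gene, stood at 36.7 ± 2.38 and 36.0 ± 5.74 CPM (edgeR adjusted p = 0.9261), and EPHA4 at 4.82 ± 1.04 and 6.67 ± 0.721 CPM (edgeR adjusted p = 0.07972). Without a call, FOSL1 and EPHA4 lay below in every received library. Called or not, 8 of the 20 targets tested lay above in every received library and 5 below, against 19.5% and 19.5% of all genes tested.

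A widely used 10-gene signature of MAPK activity holds 6 of the genes above, SPRY2, SPRY4, DUSP4, DUSP6, ETV4 and ETV5, and adds PHLDA1, CCND1, EPHA2 and EPHA4. Of its 10 genes, 3 were called higher (DUSP6, ETV4, PHLDA1), 3 lower (SPRY4, CCND1, EPHA2) and 4 neither. Over all genes tested, 9.21% were called higher and 9.67% lower, and the count was not tested against these shares. The median log2 fold change of the signature was -0.03. The signature was written down after the levels had been seen and shares most of its genes with the list, so its count is no separate evidence.

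Of 31 listed genes of the RAS-ERK cascade and its regulators, 29 passed the low-count filter, and 7 were called lower and 1 higher, where 9.67% of all genes tested were called lower and 9.21% higher. The 7 were 4, 1 and 4 without received replicate 1, 2 and 3, and the difference from the background was not tested. This list too was chosen with earlier results of these data known. The median log2 fold change of the list was -0.08. The kinase gene MAPK3, which encodes ERK1, stood at 77.1 ± 5.07 CPM in received and 81.3 ± 4.50 CPM in not-received cells and was not called (edgeR adjusted p = 0.4623). PEA15, which binds ERK and keeps it in the cytoplasm, stood at 217, 209 and 227 CPM in received and 312, 326 and 300 CPM in not-received libraries, far from overlap (log2 fold change -0.52 ± 0.06; edgeR adjusted p = 5.292e-05). The transcriptional repressor gene CIC fell from 154 ± 15.2 to 123 ± 6.37 CPM (log2 fold change -0.33 ± 0.07, edgeR adjusted p = 0.007362). It lost its call without received replicate 2 (edgeR adjusted p = 0.06427). Whether its level bears on any of the 10 genes was not tested.

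The RAS relative MRAS fell from 30.6 ± 2.74 to 23.7 ± 1.33 CPM, the ERK-responsive ETS factor gene ELK1 from 69.2 ± 6.18 to 56.7 ± 0.553 CPM and the RAS activator gene SOS2 from 31.8 ± 1.79 to 26.3 ± 0.400 CPM. The adaptor gene SHC1 and the kinase gene RPS6KA3, named after their values were seen, also fell (log2 fold change -0.26 ± 0.06 and -0.18 ± 0.06). The scaffold gene KSR1 rose from 17.2 ± 1.36 to 21.6 ± 2.19 CPM. The calls of MRAS and SHC1 ended without received replicate 2 (edgeR adjusted p = 0.06505 and 0.05936) and those of ELK1 and SOS2 without any 1 received library (highest edgeR adjusted p = 0.07913 and 0.09714). KSR1 lost its call in 6 of 13 alternatives and RPS6KA3 in 10, DESeq2 and limma-voom among them (highest adjusted p = 0.164 and 0.1676). KSR1 was not called without not-received replicate 1 or 3 or received replicate 2 or 3, and RPS6KA3 without any 1 library other than not-received replicate 1. HRAS and RPS6KA1 are listed at 0 counts in every library. The sources used here do not give how reads were assigned to genes, and nothing is read from those zeros.

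**Figure D4:**
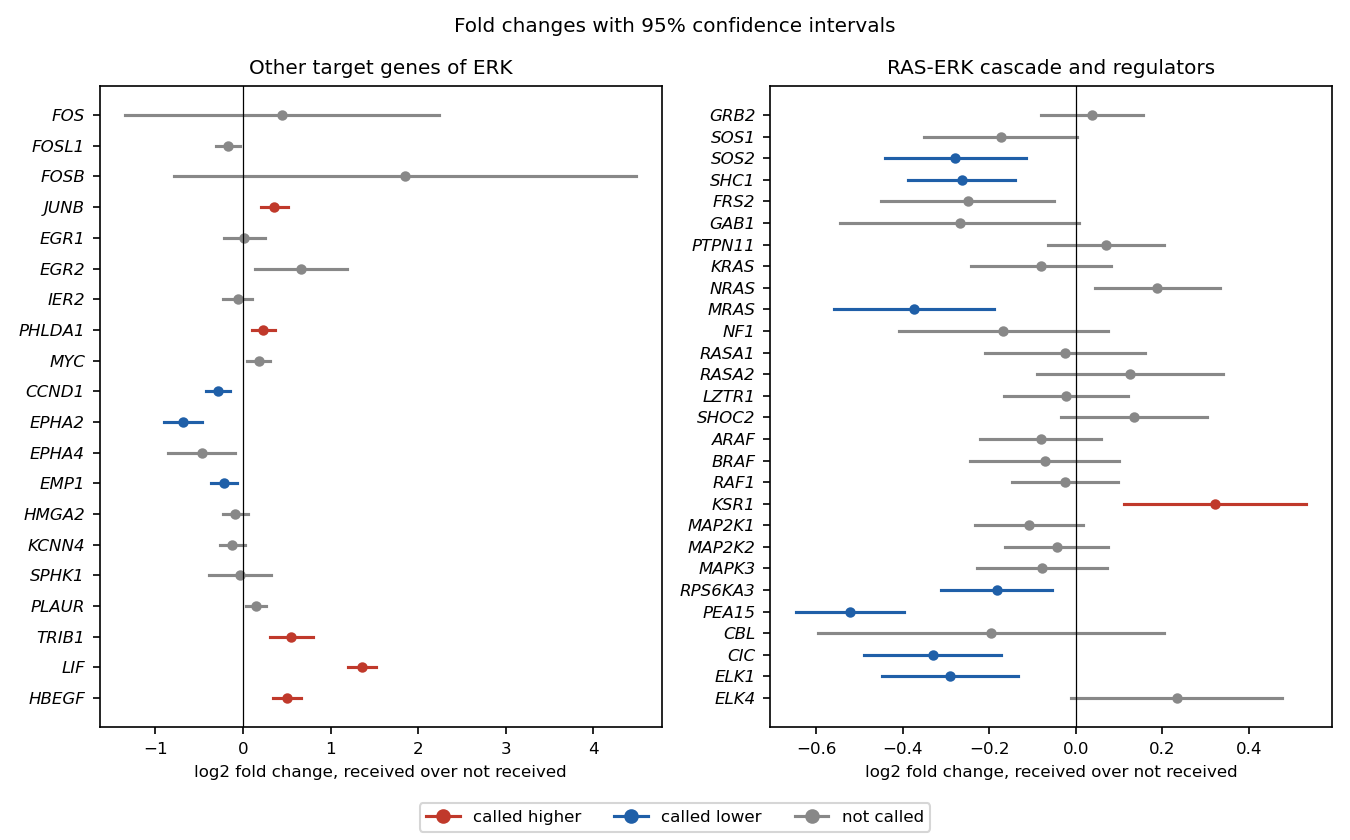
Log2 fold change, received over not received (x axis), with its 95% confidence interval for the 20 tested target genes of ERK (left) and for tested genes of the cascade and its regulators (right), coloured by edgeR call; the 2 panels have different x scales. Targets are called on both sides of 0, from EPHA2 at -0.69 to LIF at 1.36, and 7 of the 8 called cascade genes lie below 0.

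Across the ways of processing, the calls of SPRY4 and DUSP6 held in all 13 alternatives run. The log2 fold change of SPRY4 ran from -0.76 to -0.58 (highest adjusted p = 0.01481) and that of DUSP6 from 0.41 to 0.56 (highest adjusted p = 0.01145). In each of these alternatives SPRY4 was the single gene of the 10 called lower, while the number called higher ran from 1 to 3 as ETV4 and ETV5 crossed the threshold.

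**Figure D5:**
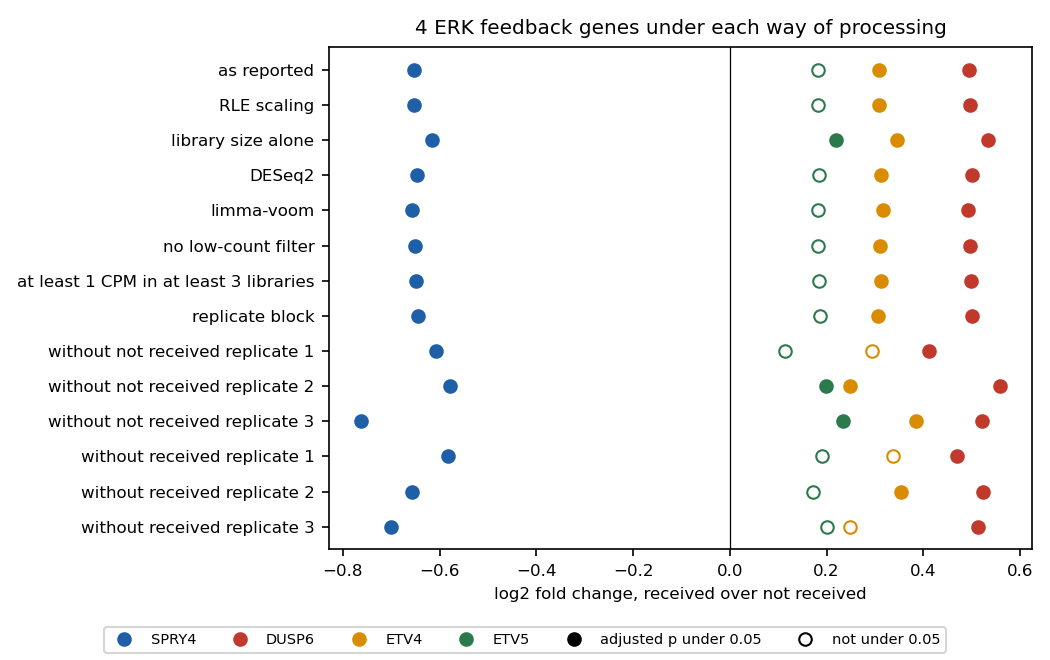
Log2 fold change, received over not received (x axis), of SPRY4, DUSP6, ETV4 and ETV5 as reported and under each of the 13 alternatives (y axis), with filled points where the adjusted p was under 0.05. SPRY4 stays between -0.76 and -0.58 and DUSP6 between 0.41 and 0.56 with every point filled, and ETV4 and ETV5 change between filled and open points.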

How the data were processed

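The 6 libraries were made from TRIzol-extracted RNA of sorted U87 cells, with poly-T capture, random hexamer priming and 150 bp paired-end Illumina reads, per the labels' protocols. The authors deposited raw read counts per gene symbol, 1 file per library, with no normalization. DESeq and R 3.6.1 are named in the submitters' processing notes. The aligner, counting program, strand setting, genome build and annotation were not given in the sources used here.

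Groups were taken from the titles. The low-count filter was filterByExpr (14100 of 54628 genes, all 10 members among them). TMM scaling and a robust quasi-likelihood fit (glmQLFit, glmQLFTest) followed in edgeR 4.0.16 and R 4.3.3. Benjamini-Hochberg adjustment ran over all genes tested, with a call at an adjusted p under 0.05. The SE is the absolute log2 fold change over the root of F. Replicates had a common coefficient of variation of 9.47%, and every pair within a group differed beyond sampling noise (chi-square per gene 3.395 to 22.11). The steps were tested on simulated data. Alternatives used RLE factors, library size alone, DESeq2 1.42.0, limma-voom 3.58.1, other filters, a replicate block and leaving out each library.

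Named were all members, the remaining MAPK phosphatases and family relatives, up to 6 called genes of each longer list with the largest change, and PHLDA1, CCND1, EPHA2, EPHA4, EGR1, FOSL1 and MAPK3. A further gene that the rule names is not reported here. The members and lists were chosen with earlier results of these data known. The CCAAT and GC box motifs were added after the data were seen. Promoter sequences are from RefSeq (GRCh38.p14), and exon lengths and overlaps from GENCODE 29. Promoter orientation was checked by looking for the bases after each start in GENCODE transcripts. The starts of DUSP6, SPRY4, SPRED1 and SPRY1 matched. Some of SPRED2 and SPRY2 did not, among them the SPRY2 start with CCGGAA.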

Additional observations from a re-analysis of the deposited data

How the results depend on the processing

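Leaving out 1 library gave 604 to 1356 genes called higher and 691 to 1579 called lower over the whole table, against 1298 and 1364 with all 6, and 1 to 3 of the 10 feedback genes called higher, against 2, with 1 called lower throughout. Without a low-count filter 2084 genes were called lower. Signs that turned belonged to uncalled genes near 0 with 1 library left out: SPRED2 (-0.083 to 0.020 on the log2 scale), DUSP4 (-0.0016 to 0.118), DUSP5 (-0.037 to 0.057), ETV1 (-0.110 to 0.011) and EGR1 (-0.065 to 0.167). DUSP5 also stood at -0.000237, -0.007667 and -0.01201 without not-received replicate 1 and received replicates 2 and 3, and EGR1 at -0.02982 and -0.03026 without not-received replicate 1 and received replicate 1. Same-numbered libraries did not deviate together (r = -0.20, -0.07 and 0.05 for numbers 1, 2 and 3). Such values from 3 libraries a group cannot exclude a shared culture or sort, and the labels do not state whether the numbers are a pairing. The replicate block gave 1252 genes called higher and 1384 lower, and 2 of the 10 genes higher and 1 lower. With the block DUSP1 was called lower (edgeR adjusted p = 0.02887) and RPS6KA3 was not called. With 3 libraries a group, small differences in SPRY1, at 42 to 113 counts, could not be resolved.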

Other observations

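The immediate-early genes FOS and FOSB, chosen after their values were seen, varied widely between libraries of the same group. FOS, an AP-1 subunit gene, stood at 45.4, 15.8 and 10.8 CPM in received replicates 1, 2 and 3 and at 21.9, 19.7 and 11.7 CPM in not-received replicates 1, 2 and 3. FOSB stood at 8.84, 1.34 and 2.06 CPM and at 1.14, 1.76 and 0.335 CPM in the same order. Received replicate 1 was the highest library for both genes, and also the received library with the highest DUSP1, at 61.0 CPM against 46.8 and 43.6 CPM. Neither FOS nor FOSB was called (edgeR adjusted p = 0.6932 and 0.2743). DUSP6 stood at 86.2 CPM in that library and at 80.1 and 81.3 CPM in the other received libraries.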
